A study of Mus musculus with 8 samples.

Results

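This account covers the 9 mouse genes Btg1, Btg2, Btg3, Tob1, Tob2, Cdkn1a, Cdkn1b, Cdkn2c and Cdkn2d: the BTG and TOB antiproliferative genes and the inhibitors of cyclin-dependent kinases (CDKs). They were taken by symbol from tables of 14042 genes, and all 9 were found in each of the 8 tables. The genes were selected on their family names and on earlier measured results of these libraries, namely the higher levels of Tob1 and Btg1 in TFH-labelled than in naive-labelled wild type cells. The series holds 8 RNA sequencing libraries in 4 groups of 2. TFH KO and TFH WT are CD4 cells of donor origin, sorted as CXCR5+ and PD1 high, as T follicular helper (TFH) cells are. They came from spleens of (bxd)F1 hosts 7 days after transfer of 10000000 spleen cells depleted of CD8 cells, taken from C5aR1-/- (KO) or wild type (WT) donors. Naive KO and naive WT are CD4 T cells sorted as CD62L high and CD44 low from mice of the same genotypes, with no transfer named. C5aR1 is a receptor for the complement fragment C5a. All 4 groups are CD4 sorts with no added agent named, the knockout is not said to be limited to a cell type, and no source used here gives the age, strain or pooling of the animals. TFH and naive cells therefore differ in transfer, host, time and sort at once, and these cannot be told apart.

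BTG and TOB proteins share an N-terminal domain that binds the Cnot7 and Cnot8 subunits of the CCR4-NOT complex, and through it they speed the removal of poly(A) tails from mRNA. In mouse T cells, Btg1 and Btg2 are known to hold naive cells in quiescence by this route, and TOB1 is known in human T cells as a brake on proliferation. The CDK inhibitors act on the protein level: p21 (Cdkn1a) and p27 (Cdkn1b) bind cyclin-CDK2 complexes, while p18 (Cdkn2c) and p19 (Cdkn2d) belong to the INK4 family and bind CDK4 and CDK6.

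The 9 genes lie on 9 different chromosomes (GENCODE vM21, GRCm38, the build that mm10 names). Btg1 spans chr10:96617006-96622809 on the plus strand, Btg2 chr1:134075170-134079120 on the minus strand and Btg3 chr16:78332637-78377192 on the minus strand. Tob1 spans chr11:94211454-94215495 on the plus strand and Tob2 chr15:81848272-81858796 on the minus strand. Cdkn1a lies at chr17:29090976-29100727 and Cdkn1b at chr6:134920401-134925513, both on the plus strand, and Cdkn2c at chr4:109660876-109667189 and Cdkn2d at chr9:21288410-21291407, both on the minus strand. Most are compact. In RefSeq, 8 of the 9 spans run from 2963 bp (Cdkn2d) to 10057 bp (Tob2), against a median of 24473 bp over the 13640 measured genes found there, and Btg3 spans 17322 bp. Cdkn2d is shorter than all but 5.15% of those genes and Btg2 than all but 9.27%. Reads of Btg1 could be shared with its annotated copies Btg1-ps1 and Btg1-ps2, and the Btg3 locus overlaps Cxadr on the opposite strand, so levels of Btg1 and Btg3 are uncertain to that extent. Btg3 also overlaps Gm49590, on its own strand, which was not measured. Tob2 and Cdkn1a each overlap an annotation on the opposite strand that was not measured. These overlaps were taken on the GENCODE spans, which for Btg3 is 44556 bp. No source used here says whether the counting used strand.

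The promoter windows of 5 genes whose levels were higher in TFH-labelled libraries are printed here: those of the quiescence pair Btg1 and Btg2, of Tob1 and Tob2, and of Cdkn1a, which had the largest difference. Btg3, also higher there, is left out for length. Each runs 5′ to 3′ along the gene from 250 bases before to 50 after a RefSeq start (GRCm38.p6), and Cdkn1a has a window for each of its 2 starts. Capitals mark matches, on either strand, to 8 motifs: the cAMP response element TGACGTCA (CRE), the AP-1 motif TGANTCA, the E-box CACGTG, the CCAAT box CCAAT, the GC box GGGCGG, the TATA box TATAAA, the forkhead motif TGTTTAC and the p53 decamer.
Btg1, chr10:96616751-96617050, plus strand: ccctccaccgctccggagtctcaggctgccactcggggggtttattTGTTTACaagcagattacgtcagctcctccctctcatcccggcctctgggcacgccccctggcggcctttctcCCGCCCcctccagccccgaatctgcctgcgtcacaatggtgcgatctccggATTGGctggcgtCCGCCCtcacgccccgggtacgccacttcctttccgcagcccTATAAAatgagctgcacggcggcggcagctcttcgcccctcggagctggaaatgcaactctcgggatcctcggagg
Btg2, chr1:134079106-134079405, minus strand: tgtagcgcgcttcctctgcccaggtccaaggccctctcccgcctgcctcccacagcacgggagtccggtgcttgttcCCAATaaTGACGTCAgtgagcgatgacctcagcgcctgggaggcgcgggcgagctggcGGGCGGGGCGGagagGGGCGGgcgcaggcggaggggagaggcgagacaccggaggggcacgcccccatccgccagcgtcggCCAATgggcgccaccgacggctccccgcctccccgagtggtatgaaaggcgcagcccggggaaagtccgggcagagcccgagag
Tob1, chr11:94211204-94211503, plus strand: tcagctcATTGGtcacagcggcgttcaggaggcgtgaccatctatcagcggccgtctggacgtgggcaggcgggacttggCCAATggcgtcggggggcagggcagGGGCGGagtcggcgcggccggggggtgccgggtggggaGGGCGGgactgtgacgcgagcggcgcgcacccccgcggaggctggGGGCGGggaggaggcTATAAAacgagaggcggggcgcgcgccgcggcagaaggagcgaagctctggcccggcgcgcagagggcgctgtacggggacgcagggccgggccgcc
Tob2, chr15:81858277-81858576, minus strand: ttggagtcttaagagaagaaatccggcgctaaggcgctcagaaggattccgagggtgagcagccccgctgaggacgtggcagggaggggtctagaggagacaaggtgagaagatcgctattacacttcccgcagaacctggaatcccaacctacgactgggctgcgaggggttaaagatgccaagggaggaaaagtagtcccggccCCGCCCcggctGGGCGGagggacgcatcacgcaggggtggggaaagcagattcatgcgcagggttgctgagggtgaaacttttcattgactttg
Cdkn1a, upstream start, chr17:29090729-29091028, plus strand: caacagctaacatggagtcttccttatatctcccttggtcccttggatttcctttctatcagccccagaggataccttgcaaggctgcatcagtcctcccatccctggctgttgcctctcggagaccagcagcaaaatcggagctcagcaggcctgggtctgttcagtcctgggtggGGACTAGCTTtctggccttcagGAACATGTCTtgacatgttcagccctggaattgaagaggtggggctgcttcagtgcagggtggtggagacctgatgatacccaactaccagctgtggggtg
Cdkn1a, downstream start, chr17:29093519-29093818, plus strand: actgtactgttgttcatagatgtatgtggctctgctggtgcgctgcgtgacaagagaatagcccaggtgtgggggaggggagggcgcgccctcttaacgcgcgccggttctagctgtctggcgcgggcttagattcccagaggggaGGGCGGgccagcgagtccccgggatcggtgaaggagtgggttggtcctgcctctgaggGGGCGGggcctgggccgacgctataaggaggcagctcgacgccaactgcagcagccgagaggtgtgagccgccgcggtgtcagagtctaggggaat

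The CRE was found in 1 of the 12 windows of the 9 genes, that of Btg2, where its first base stands at position -166 from the start. The same 8 letters occur in 2.82% of the 13793 windows of measured genes. The forkhead motif was found in Btg1 at -204 and occurs in 2.68% of windows. TATA boxes stood at -26 in Btg1 and at -47 in Tob1, against 7.75% of windows. The GC box was found in a window of every one of the 9 genes. Counted by window, that is 9 of the 12, against 58.0% of all windows of measured genes. In Btg2 the first 2 GC boxes overlap. The CCAAT box was found in 7 of the 9 genes, in 8 of the 12 windows, and occurs in 37.8% of windows of measured genes. AP-1 was found in none of the 12 windows and in 5.55% of windows of measured genes. The E-box was found in Cdkn2c and in 9.5% of windows. The upstream window of Cdkn1a, a classical p53 target, holds p53 decamers at -73 and -51, a motif present in 6.97% of windows. A further p53 decamer lies in the window of Cdkn2d. A match is a description of the letters and says nothing of binding in these cells.

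Each level below is a deposited log2 value. Each difference is between 2 group means on that scale, with n = 2 libraries per group and a standard error (SE) from a linear model over all genes and libraries (limma). A gene was called at a Benjamini-Hochberg adjusted p below 0.05. The sorted values of the libraries are nearly the same, as quantile normalization leaves them, and the depth is unknown. C5ar1 itself was not analysed here, so the KO label was not checked on the deleted gene. Cd4 ranged over 15.53 to 15.69 in TFH-labelled against 15.48 to 15.63 in naive-labelled libraries, and Cd3e over 13.75 to 13.93 against 13.88 to 13.99. Of 5 T cell markers measured, 1 was called between the labels: Cd3d, at 14.42 and 14.20 in TFH KO against 14.62 and 14.84 in naive KO, fell by 0.42 in KO (adjusted p = 0.0440, limma). Il21, whose product TFH cells secrete, was 9.58 to 10.40 in TFH-labelled and 7.31 to 8.19 in naive-labelled libraries. Transcripts of the sort markers did not all follow the labels. Cxcr5 was 10.85 to 11.56 in TFH-labelled libraries and 11.56 to 12.45 in naive-labelled libraries, and Cd44 was 11.97 to 12.11 against 12.53 to 13.04. Levels of other cell types also moved with the label or the library. The summed level of 10 B cell markers was 15.17 and 13.70 in replicate 2 of TFH KO and of TFH WT, 11.25 and 11.71 in replicate 1 of each, and 12.21 to 13.62 in the naive-labelled libraries. That of 11 myeloid markers was 12.23 to 13.47 in TFH-labelled and 13.73 to 15.34 in naive-labelled libraries, where naive WT replicate 1 had the 15.34 and the other 3 at most 13.96. The level of 9 CD8 T and NK cell markers was 12.09 to 12.94 in TFH-labelled and 13.43 to 13.74 in naive-labelled libraries. No marker of these 3 lists was listed at 0, the lowest being Fpr1 at 2.73 in TFH WT replicate 1. Naive KO replicate 1 was the only library with Xist, a transcript of female cells, at a high level (14.61, against 4.44 to 5.56 in the other 7). Ddx3y, a Y chromosome gene, was low there (5.67, against 12.54 to 13.16 in the other 7). By these transcripts the 2 naive KO libraries differ in sex, which enters every comparison with naive KO. The part of these shifts in the results below was not tested, and in sorted bulk RNA a change in the mix of cells and a change in RNA per cell cannot be told apart.

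Btg1 and Btg2, the pair linked to T cell quiescence, were both higher in the TFH-labelled libraries of either genotype. Btg1 stood at 16.85 and 16.95 in TFH KO, 16.60 and 16.74 in TFH WT, 15.89 and 15.74 in naive KO, and 15.80 and 15.76 in naive WT. The 4 TFH-labelled libraries lay above all 4 naive-labelled libraries, and both TFH KO libraries above both TFH WT libraries. In KO cells Btg1 rose by 1.08 ± 0.10 on the log2 scale, 2.12-fold with a 95% interval of 1.82 to 2.46 (adjusted p = 2.82e-05, limma). In WT cells the log2 difference was 0.89 ± 0.10, or 1.86-fold. Btg2 stood at 14.34 and 14.20 in TFH KO, 14.28 and 14.30 in TFH WT, 13.61 and 13.61 in naive KO, and 13.65 and 13.87 in naive WT. Here the TFH-labelled libraries again lay above every naive-labelled library, and the TFH KO and TFH WT libraries overlapped. Btg2 rose by 0.66 ± 0.11 in KO, 1.58-fold with an interval of 1.34 to 1.86 (adjusted p = 0.00158, limma), and differed by 0.53 ± 0.11 in WT.

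Btg3, a further BTG family member, stood at 9.52 and 9.01 in TFH KO, 9.08 and 9.20 in TFH WT, 8.35 and 8.53 in naive KO, and 8.04 and 8.41 in naive WT. The TFH-labelled libraries lay above the naive-labelled ones, while the genotypes overlapped within each label. It rose by 0.82 ± 0.20 in KO (adjusted p = 0.0153, limma) and differed by 0.92 ± 0.20 in WT. The KO call ended without TFH KO replicate 1 (0.57, adjusted p = 0.109) or naive KO replicate 1 (0.73, adjusted p = 0.0842), both by limma. Cxadr, which overlaps Btg3, was 6.71 and 7.15 in TFH KO, 7.19 and 7.28 in TFH WT, 6.37 and 6.70 in naive KO, and 5.59 and 6.46 in naive WT.

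Tob1 and Tob2, which carry the BTG domain on a longer protein, had the largest called differences among the BTG and TOB genes. Tob1 stood at 12.42 and 12.08 in TFH KO, 12.34 and 12.22 in TFH WT, 10.55 and 10.38 in naive KO, and 10.53 and 10.92 in naive WT. Tob2 stood at 13.68 and 13.45 in TFH KO, 13.51 and 13.54 in TFH WT, 11.93 and 11.80 in naive KO, and 11.96 and 12.00 in naive WT. For both genes the TFH-labelled libraries lay more than a log2 unit above the naive-labelled ones, and TFH KO and TFH WT overlapped. In KO cells Tob1 rose by 1.79 ± 0.15, 3.45-fold with an interval of 2.74 to 4.35 (adjusted p = 2.36e-05, limma). Tob2 rose by 1.70 ± 0.11 in KO, 3.24-fold with an interval of 2.76 to 3.81 (adjusted p = 1.10e-06, limma). In WT cells both differed by 1.55, with an SE of 0.15 for Tob1 and 0.11 for Tob2, or 2.92-fold each.

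**Figure D1:**
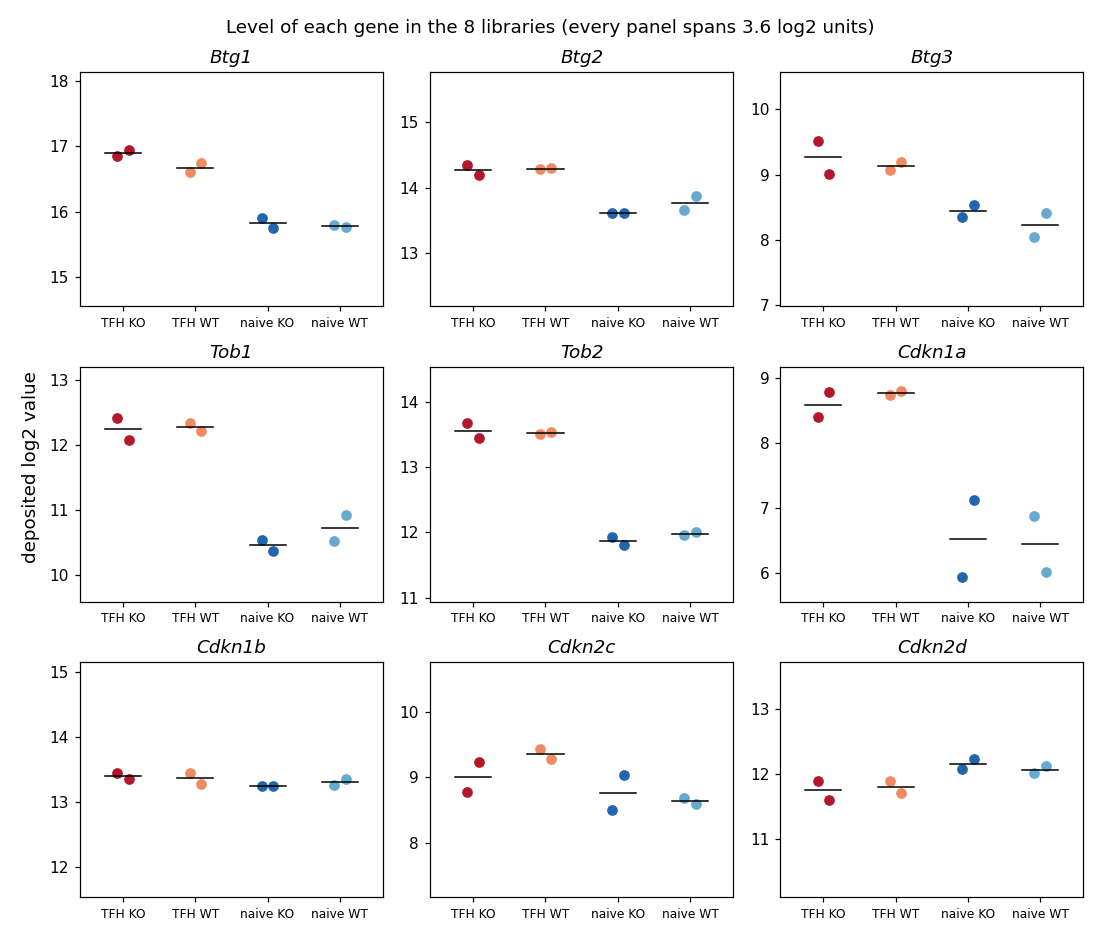
Deposited log2 value of each of the 9 genes in the 8 libraries, by group; points are libraries, lines are group means, and every panel spans the same number of log2 units. All TFH-labelled points of Btg1, Btg2, Btg3, Tob1, Tob2 and Cdkn1a lie above the naive-labelled points, those of Cdkn2d lie below them, and Cdkn1b and Cdkn2c overlap.

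Cdkn1a, which encodes the p53-inducible inhibitor p21, had the largest difference of the 9 genes and the widest error. With a pseudocount of 32 its KO difference was 1.72, below the 1.76 of Tob1, while its WT difference of 1.95 was still the largest. Cdkn1a stood at 8.40 and 8.77 in TFH KO, 8.72 and 8.79 in TFH WT, 5.93 and 7.12 in naive KO, and 6.88 and 6.01 in naive WT. These were the lowest naive-labelled values of the 9 genes, beside 4.44 to 5.56 for Xist in the libraries where Xist was low. The naive-labelled libraries spread over more than a log2 unit within naive KO, yet all lay below the TFH-labelled ones. Cdkn1a rose by 2.06 ± 0.42 in KO, 4.17-fold with an interval of 2.11 to 8.23 (adjusted p = 0.0134, limma), and differed by 2.31 ± 0.42 in WT. Without TFH KO replicate 2 the KO difference of 1.87 was not called (adjusted p = 0.0908, limma). Cdkn1b, whose product p27 falls when T cells enter the cycle, largely through protein breakdown, stood at 13.45 and 13.36 in TFH KO, 13.45 and 13.28 in TFH WT, 13.24 and 13.26 in naive KO, and 13.26 and 13.35 in naive WT. The 8 values lay within a narrow band, with TFH KO just above naive KO and with overlap between TFH WT and naive WT. Its log2 difference was 0.16 ± 0.10 in KO (adjusted p = 0.326, limma), a ratio of 1.12 with an interval of 0.955 to 1.30. In WT it was 0.06 ± 0.10, a ratio of 1.04 with an interval of 0.890 to 1.22.

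Of the INK4 genes, Cdkn2d was called lower in KO and Cdkn2c was not called there. Cdkn2d (p19) stood at 11.90 and 11.61 in TFH KO, 11.89 and 11.71 in TFH WT, 12.08 and 12.23 in naive KO, and 12.01 and 12.13 in naive WT. It was the one gene of the 9 with all TFH-labelled libraries below all naive-labelled ones. Cdkn2d fell by 0.40 on the log2 scale in KO (SE 0.12, adjusted p = 0.0395, limma), and the difference in WT was -0.27 ± 0.12, which was not called. The KO call ended in 7 of 13 alternatives, with adjusted p-values of up to 0.326 by limma. Cdkn2c (p18) stood at 8.77 and 9.23 in TFH KO, 9.44 and 9.28 in TFH WT, 8.49 and 9.04 in naive KO, and 8.69 and 8.59 in naive WT. TFH WT lay above naive WT, whereas TFH KO and naive KO overlapped. The log2 difference of Cdkn2c was 0.23 ± 0.21 in KO (adjusted p = 0.494, limma) and 0.72 ± 0.21 in WT, where it passed the threshold in 7 of 13 alternatives, with adjusted p-values of up to 0.141 by limma.

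Across the set, 6 of the 9 genes were called higher and 1 lower in TFH KO against naive KO, where 9.12% of all genes were called higher and 10.4% lower. In TFH WT against naive WT, the comparison in which Tob1 and Btg1 had been seen before the set was listed, 7 were called higher and none lower, where 12.6% of all genes were called higher and 13.7% lower. Those WT values are a description and support nothing, and the KO results were known as well when the genes were listed. The median of the 9 differences was 0.82 in KO and 0.89 in WT, against -0.01 and 0.01 over all genes. The 2 comparisons share no library, but they come from a single fit with a shared estimate of the spread. The KO counts are therefore a description as well. All 4 TFH-labelled libraries lay above all 4 naive-labelled libraries for 6 of the 9 genes, against 18.2% of all genes, and below them for 1, against 20.3%. Without replicate 2 of TFH KO and of TFH WT, the libraries with the higher B cell marker level, each TFH group held 1 library. In that fit the BTG and TOB genes differed by 0.73 (Btg2) to 1.95 (Tob1) in KO. In WT they differed by 0.52 (Btg2) to 1.61 (Tob1). In KO and WT, Cdkn1a differed by 1.87 and 2.28, Cdkn1b by 0.20 and 0.14, Cdkn2c by 0.006 and 0.80, and Cdkn2d by -0.25 and -0.18. The medians over all genes were 0.01 and 0.02. Without naive KO replicate 1, the library with high Xist, 5 were called higher and none lower in KO, against 6.4% and 6.85% of all genes, with Btg3 and Cdkn2d no longer called. Without naive WT replicate 1, the library with the highest myeloid marker level, 5 were called higher in WT, against 8.37% of all genes, with Btg3 and Cdkn2c no longer called. Btg1, Btg2, Tob1 and Tob2 were called in all 13 alternatives in each genotype, and the lowest difference among those alternatives was 0.42, for Btg2 in WT.

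**Figure D2:**
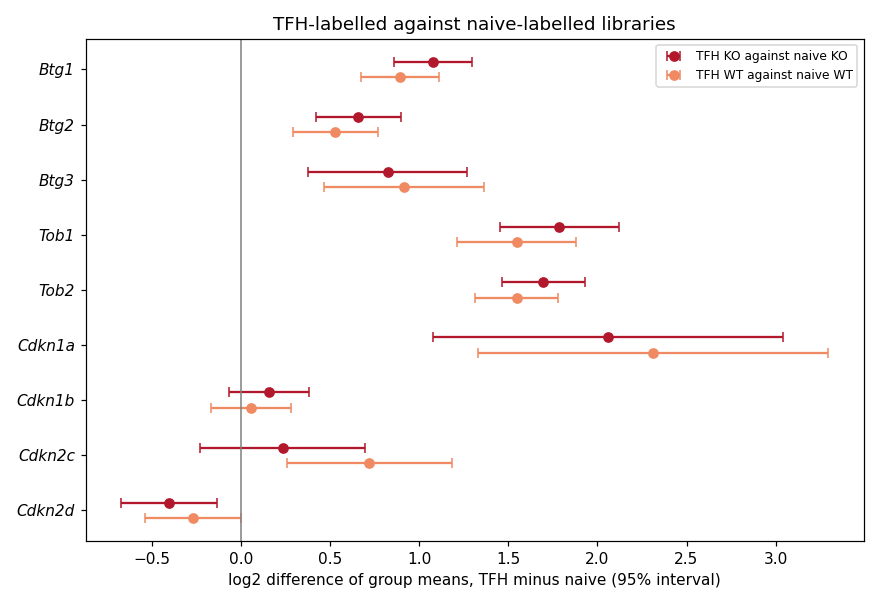
Log2 difference of group means, TFH minus naive, for each gene within KO and within WT; bars are 95% intervals from the model over all genes. Tob1, Tob2 and Cdkn1a stand farthest to the right, and Cdkn2d lies to the left. The intervals of Cdkn1b in both genotypes, of Cdkn2c in KO and of Cdkn2d in WT include 0.

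KO and WT cells were compared within each label to ask whether loss of C5aR1 shifted these genes, a contrast on which the set was not chosen. None of the 9 was called in TFH KO against TFH WT, where limma called 0 of 14042 genes (0% of genes; 506 genes, 3.6%, had an unadjusted p below 0.05). With the compared groups only in the fit, limma called 1 gene of the table and none of the 9. Btg1 had the largest positive difference, 0.23 ± 0.10, a ratio of 1.17 with an interval of 1.01 to 1.36 (unadjusted p = 0.042, adjusted p = 1 by limma), and was higher in 2 of 2 KO libraries than in either WT library. Cdkn2c had the largest negative one, at -0.36 ± 0.21, a ratio of 0.779 with an interval of 0.566 to 1.07 (adjusted p = 1 by limma), and was lower in 2 of 2 KO libraries. For the other 7 genes the KO and WT libraries overlapped. Groups that did not overlap were found for 2 of the 9 genes and for 33% of all genes. The intervals bound what these libraries could show. For Btg2, Tob2 and Cdkn1b the KO to WT ratio lay between 0.837 and 1.20 across all interval ends, while for Cdkn1a the interval ran from 0.450 to 1.75.

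In naive KO against naive WT none of the 9 genes was called, where limma called 10 of all genes, or 0.0712%, and none of the 9 had an unadjusted p below 0.05 (355 of all genes, 2.53%, did). The differences ran from -0.27 ± 0.15 for Tob1 to 0.22 ± 0.20 for Btg3 (adjusted p = 0.9998 by limma for all 9). Btg2, Tob2 and Cdkn1b were lower in both KO libraries than in both WT libraries, at -0.15 ± 0.11, -0.12 ± 0.11 and -0.06 ± 0.10. That is 3 of the 9 genes lower with no overlap, against 11.2% of all genes, and none higher with no overlap. The 11.2% counts the lower direction only, unlike the 33% in TFH KO against TFH WT, which counts either direction. For Cdkn1b the nearest libraries were close, at 13.264 in naive WT replicate 1 and 13.256 in naive KO replicate 2. Nothing is drawn from the count. Averaged over both labels, again none of the 9 was called by limma, against 0.057% of all genes, and none had an unadjusted p below 0.05 (293 of all genes, 2.09%, did). Btg3 at 0.17 ± 0.14 and Btg1 at 0.13 ± 0.07 were the highest of these averages, and Tob1 at -0.15 ± 0.11 was the lowest.

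**Figure D3:**
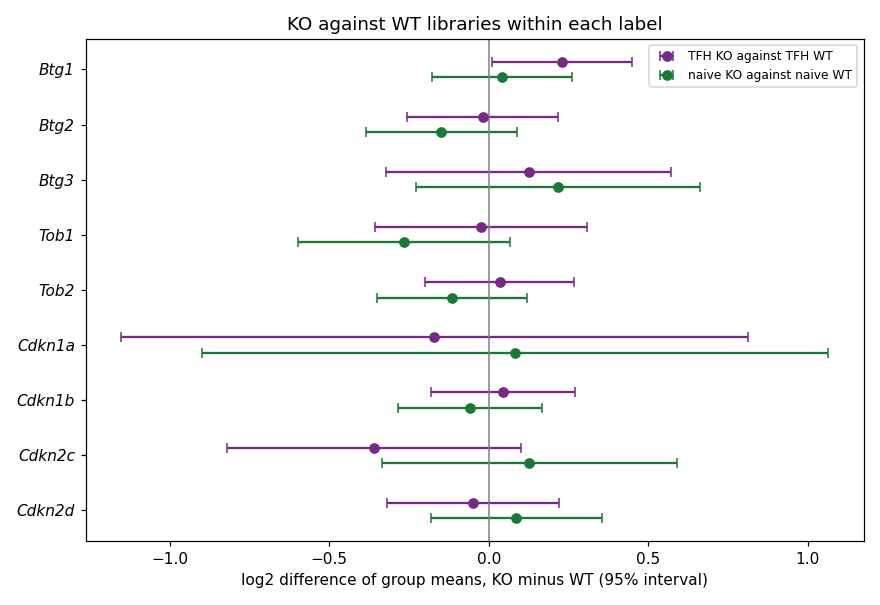
Log2 difference of group means, KO minus WT, for each gene within TFH-labelled and within naive-labelled libraries; bars are 95% intervals from the model over all genes. All intervals include 0 except that of Btg1 in TFH-labelled libraries, which starts at 0.01 and was not called after adjustment.

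Whether the TFH to naive difference itself changed with genotype was tested by the interaction. None of the 9 genes was called, and none had an unadjusted p below 0.05, where limma called 2 of all genes, or 0.0142%, and 614, or 4.37%, had an unadjusted p below 0.05. Cdkn2c, called in WT in 7 of 13 alternatives and not in KO, had the largest interaction at -0.49 ± 0.30, with a 95% interval of -1.14 to 0.17 (adjusted p = 0.997 by limma). Tob1 had the highest at 0.24 ± 0.21 (adjusted p = 0.997 by limma). The calls of Cdkn2c in WT alone and of Cdkn2d in KO alone are thus not shown to differ between genotypes.

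The order of the 4 groups was not the same for every gene. Btg1 and Btg3 ran from TFH KO through TFH WT and naive KO to naive WT, and only Btg1 had non-overlapping libraries between TFH KO and TFH WT in that order. Tob1 and Btg2 ran from TFH WT through TFH KO and naive WT to naive KO, and Tob2 from TFH KO through TFH WT and naive WT to naive KO. In all of these and in Cdkn1a the libraries stood apart at the step between the TFH-labelled and naive-labelled groups. Btg2 and Tob2 also had naive WT apart from and above naive KO. For Cdkn2d the step between the labels ran the other way. For Cdkn1b neighbouring groups overlapped at each step except the last, naive WT over naive KO, and for Cdkn2c at each except the first, TFH WT over TFH KO. The 2 naive KO libraries had the same deposited value for Btg2.

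Among themselves, Tob1 and Tob2 had the most alike profiles. After each profile was centred on its mean over the 8 libraries, they differed by a root mean square of 0.12 log2 units, against 0.22 for the next pair, Btg1 and Btg3. Of the 11921 other genes compared in this way, the histone variant gene H3f3b was nearest to Btg1 (0.067), followed by the RNA helicase gene Ddx3x (0.083). Nearest to Tob1 were Rasl11b (0.062) and Taf7, a subunit gene of the general transcription factor TFIID (0.10). Taf7 was also nearest to Tob2 (0.081), followed by Tagap (0.093) and the F-box gene Fbxo33 (0.098). For Btg2 the nearest was the RNA demethylase gene Alkbh5 (0.059), and for Btg3 it was Tenm3 (0.070). In log2 units Cdkn1a had no neighbour as near. Cxcl10, a chemokine gene, Ctla4, an inhibitory receptor gene, and Cacna1d all lay at 0.19 or 0.20. Cdkn1a also had the largest spread of its own among the members. The distances were not scaled by that spread, so they do not rank how closely different members were matched. For Cdkn1b the nearest was Pcbp2 (0.034) and for Cdkn2d it was Marc2 (0.034). These 2 members also had the smallest spread of their own, with a root mean square about their mean of 0.080 for Cdkn1b and 0.198 for Cdkn2d. Cdkn2c was nearest to Zfp821 (0.086), Irgm1 (0.087) and Lockd (0.096). The 8 libraries share 2 labels and 2 genotypes, so any gene that differs with the label to the same extent comes out as alike.

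The counts of the related lists stand beside those of all genes, of which 9.12% were called higher and 10.4% lower in TFH KO against naive KO, and 12.6% and 13.7% in WT. No test compares the lists with each other or with all genes. Of 17 genes of CCR4-NOT, other deadenylases and poly(A) binding, 2 rose and 2 fell in TFH KO against naive KO. In WT 3 rose and none fell. The median differences were 0.10 in KO and 0.08 in WT, against -0.01 and 0.01 over all genes. In KO the poly(A)-binding protein gene Pabpc4 rose by 0.52 ± 0.10 (adjusted p = 0.00348, limma) and Cnot10 by 0.40 ± 0.10, while Cnot6l, which encodes a catalytic subunit, and Cnot4 fell by 0.41 and 0.40. Without replicate 2 of TFH KO and of TFH WT, none of the 17 was called in KO and 2 rose in WT. Cnot7, the catalytic subunit bound by BTG proteins, was not called in any comparison. Of 7 other partner genes, 1 rose and 2 fell in each genotype. In KO these were Smad7 at 0.60 ± 0.15, an inhibitor of TGF-beta signalling, and Smad3 and Smad4, its signal carriers, at -0.40 ± 0.12 and -0.36 ± 0.11. Without both TFH replicate 2 libraries, 1 of the 7 rose in KO and none was called in WT.

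The CDK inhibitors act on cyclin-CDK complexes and, through them, on pocket proteins and E2F. For the lists below, the shares of all genes called were 9.12% higher and 10.4% lower in KO, and 12.6% and 13.7% in WT. Of 15 cyclin and CDK genes, 1 rose and 2 fell in KO, and 6 rose and 2 fell in WT. Ccne2, which encodes a cyclin partner of CDK2, rose by 0.78 ± 0.22 in KO (adjusted p = 0.0289, limma) and differed by 1.46 ± 0.22 in WT. Ccnd2, a cyclin partner of CDK4 and CDK6, fell by 0.78 in KO, and Cdk7 fell by 0.34. Of 13 pocket protein and E2F genes, 3 rose and 1 fell in KO, and 6 rose and 1 fell in WT. E2f1, an activator of S phase genes, rose by 1.12 ± 0.21 in KO (adjusted p = 0.00298, limma), while Rbl2, a pocket protein gene of resting cells, fell by 0.57 (adjusted p = 0.00277, limma). Of 14 genes for the turnover of p27 and p21, 3 rose and 3 fell in KO, and 7 rose and 1 fell in WT. Cks2 rose by 1.52 ± 0.16 in KO, while Skp2, which marks p27 for breakdown, fell by 0.70 (adjusted p = 0.0225, limma). Replicate 2 of TFH KO and of TFH WT had the higher B cell marker level. Without both, each TFH group holds 1 library, so medians are given for these lists. In KO the medians of the cyclin and CDK, pocket protein and E2F, and turnover lists were -0.07, 0.17 and 0.05. With all libraries they were 0.17, 0.23 and 0.21. In WT the medians were 0.31, 0.38 and 0.20, against 0.26, 0.38 and 0.22 with all libraries. Over all genes the medians without both libraries were 0.01 in KO and 0.02 in WT.

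Replication and mitosis genes were higher in the same TFH-labelled groups as the BTG and TOB genes. Of 28 such genes, 9 rose and none fell in KO, and 24 rose and none fell in WT, with median differences of 0.61 and 1.25. Over all genes, 9.12% were called higher and 10.4% lower in KO, and 12.6% and 13.7% in WT. Pcna, the replication clamp gene, rose by 1.15 ± 0.11 and the licensing factor gene Cdt1 by 1.13 ± 0.13 in KO (adjusted p = 3.8e-05 and 0.000156, limma). In TFH KO against TFH WT, 1 of the 28 differences was positive and none was called by limma, with a median of -0.34, and in naive KO against naive WT 24 were positive and none was called, with a median of 0.26. The proliferation marker Mki67 was 11.52 and 12.99 in TFH KO and 12.27 and 13.24 in TFH WT, with replicate 2 of each, which also had the higher B cell marker level, above replicate 1. In the naive-labelled libraries Mki67 was 11.39 and 11.51 in KO and 11.43 and 10.53 in WT. TFH KO replicate 1 was thus about level with naive KO replicate 2. Without both replicate 2 libraries, 2 of the 28 genes rose in KO and 25 in WT, with medians of 0.13 and 1.13. Without naive KO replicate 1, 5 rose in KO. How far these libraries bear on the difference in count between KO and WT was not tested.

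**Figure D4:**
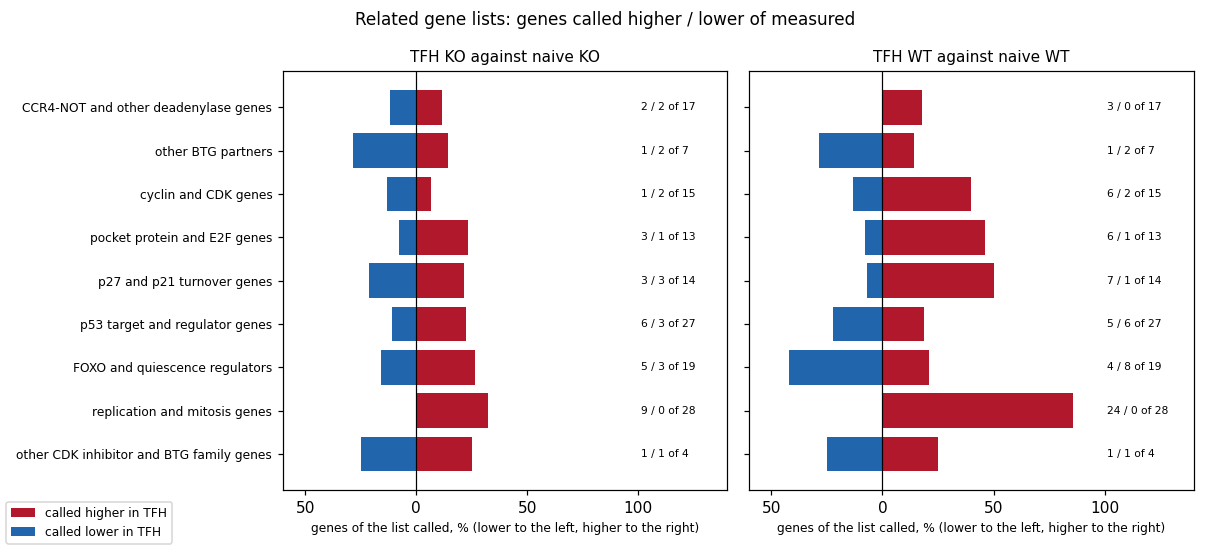
Share of each related gene list called higher (to the right) or lower (to the left) in TFH-labelled than in naive-labelled libraries, for KO on the left panel and WT on the right panel; the numbers give genes called higher, called lower and measured. Replication and mitosis genes have 9 of 28 called higher in KO and 24 of 28 in WT, with none called lower.

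The list of p53 targets and regulators, which leaves out the 9 genes, and the list of quiescence regulators had calls in both directions. Of 27 p53 target and regulator genes, 6 rose and 3 fell in KO, and 5 rose and 6 fell in WT, beside 9.12% of all genes higher and 10.4% lower in KO and 12.6% and 13.7% in WT. The kinase gene Plk2 rose by 3.76 ± 0.19, Gadd45a, a stress-induced growth arrest gene, by 2.20 ± 0.19 and Plk3 by 1.95 ± 0.20 in KO, while Ddit4, an inhibitor of mTOR signalling, fell by 1.35. Ddit4 also had the smallest p of that list for KO against WT over both labels, at -0.63 ± 0.10 (adjusted p = 0.0812, limma), and was not called. Of 19 FOXO and quiescence regulators, 5 rose and 3 fell in KO, and 4 rose and 8 fell in WT. Klf4 and Klf6, zinc-finger transcription factor genes of which Klf4 restrains T cell proliferation in mice, rose by 4.85 ± 0.17 and 2.46 ± 0.11 in KO. Slfn2, needed for T cell quiescence in mice, fell by 1.25, and Il7r, the receptor for the survival cytokine IL-7, fell by 0.98 in KO. Without both TFH replicate 2 libraries, 3 of the 19 rose and 2 fell in KO. Of 4 measured genes that extend the families or bear their names, 1 rose and 1 fell in each genotype, in KO Cdkn2aip at 0.57 ± 0.11 and Cdkn2aipnl at -0.45 ± 0.12. Of these 4, Cdkn1c, which encodes p57, was not called in any comparison. Its level was 7.78 and 7.05 in TFH KO, 7.58 and 7.57 in TFH WT, 7.25 and 7.07 in naive KO, and 6.99 and 7.33 in naive WT.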

How the data were processed

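Gene expression was measured by single-end RNA sequencing (51 bp reads) in 8 mouse libraries, 2 in each of 4 groups set by the labels. BWA, an aligner, and the build mm10 were used, per the submitters' processing notes. No source used here names the counting tool, annotation, filter or normalization. For each library the authors deposited a table of log2 values, from 1.16 to 19.48 over 14042 genes. Above the lowest percentile, the sorted values of every library lie within 0.03 of the median library, as quantile normalized values do, and such values keep no depth, no counting interval and no difference in overall spread.

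The deposited log2 values were fitted without a pseudocount in limma 3.58.1 (R 4.3.3), with a mean for each of the 4 groups, 4 residual degrees of freedom and trend and robust moderation. Benjamini-Hochberg adjustment ran over the whole table in each of 6 comparisons. The members and lists were chosen with earlier results of these data known. All members are named, and of each list up to 4 called genes by smallest p, or the 2 with the smallest p; the text leaves out part of these for length. Separate animals are not stated for the 2 libraries of a group, so p-values reflect only how far these samples spread, possibly for technical reasons. Alternatives were no trend, no robust option, the compared groups only, a mean level of at least 5, scaling by 79 ribosomal protein genes or by a trimmed mean, a pseudocount of 32, the B cell marker level as covariate, and leaving out libraries. The model was tested on simulated data. The 9 promoters were matched by symbol to RefSeq, as were 13793 windows of measured genes.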

Additional observations from a re-analysis of the deposited data

How the results depend on the processing

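Of 747 values of the 9 genes under alternatives, 684 kept their direction and side of the threshold, 20 lost a call, 1 gained one and 42 changed sign. None of the 42 had been called. Genes called came to 5 or 6 of 9 without any 1 library, in TFH KO against naive KO and in TFH WT against naive WT, and to 0 in the other comparisons. The calls of Btg1, Btg2, Tob1 and Tob2 were made in all 13 alternatives in each genotype, Btg3 in 11 in each, Cdkn1a in 12 in WT and 11 in KO, Cdkn2c in 7 in WT and Cdkn2d in 6 in KO. With the B cell level as covariate Cdkn2d was also called in WT (adjusted p = 0.0364, limma).

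With the B cell level as covariate, Btg2 (0.0025), Tob1 (0.029) and Cdkn2d (0.0074) changed sign in TFH KO against TFH WT, and Cdkn1b (0.017) over both labels. Without both TFH replicate 2 libraries these were Btg2 (0.060), Tob1 (0.082) and Cdkn2d (0.0090) in TFH KO against TFH WT, Tob2 (0.023) over both labels, and the interaction of Btg3 (0.22). Leaving out 1 library at a time gave ranges through 0 in TFH KO against TFH WT for Btg2 (-0.092 to 0.053), Btg3 (-0.13 to 0.38), Tob1 (-0.19 to 0.14), Tob2 (-0.079 to 0.15), Cdkn1a (-0.36 to 0.016), Cdkn1b (-0.042 to 0.13) and Cdkn2d (-0.20 to 0.10). In naive KO against naive WT it did so for Btg1 (-0.036 to 0.12), Cdkn1a (-0.51 to 0.68) and Cdkn2c (-0.14 to 0.40), and over both labels for Tob2 (-0.10 to 0.016), Cdkn1a (-0.34 to 0.25), Cdkn1b (-0.050 to 0.035), Cdkn2c (-0.25 to 0.018) and Cdkn2d (-0.056 to 0.092). The interaction ranges through 0 were those of Btg3 (-0.34 to 0.16), Cdkn1a (-0.85 to 0.34) and Cdkn2d (-0.28 to 0.013). Between labels only Cdkn2c (-0.036 to 0.51) in KO and Cdkn1b (-0.029 to 0.14) in WT ran through 0. The cause was not tested.

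Counts over all genes moved more. Those of TFH WT against naive WT were 1991 to 2501 without any 1 library and 2104 without both TFH replicate 2 libraries, against 3694, and those of TFH KO against naive KO 1399 to 2219 and 1225, against 2744. KO against WT over both labels gave 4 genes under no trend and under ribosomal protein scaling and 5 under trimmed mean scaling, against 8, and 4 to 11 without any 1 library. Naive KO against naive WT gave 7 to 17 against 10, and the interaction 1 to 7 and, with no trend, 0 against 2. The scalings shifted the median of all genes by at most 0.06. No paired analysis was possible because the replicate numbers were given in accession order and no label pairs samples. Across genes, TFH KO and TFH WT libraries of the same number correlated at 0.992 and 0.993, against 0.983 within TFH KO and 0.990 within TFH WT. The list counts without libraries that stand apart were chosen after seeing the data. With no depth, counting error is unknown, and 2 libraries against 2 allow an exact two-sided permutation p of 0.333 at the smallest.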

Other observations

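Lockd, a long non-coding RNA gene, starts 3579 bases past the end of Cdkn1b on the same strand (chr6:134929092-134956798, GENCODE vM21), yet its profile was among the 3 nearest to Cdkn2c and not to Cdkn1b. Lockd stood at 7.71 and 8.07 in TFH KO, 8.49 and 8.32 in TFH WT, 7.46 and 7.93 in naive KO, and 7.52 and 7.35 in naive WT. TFH WT lay above every other library, while TFH KO and naive KO overlapped. The log2 difference was 0.20 ± 0.22 in KO (adjusted p = 0.593, limma) and 0.97 ± 0.22 in WT (adjusted p = 0.00717, limma). Lockd is named here because its profile lies near that of Cdkn2c. Its own pattern over the groups is thus a description and supports nothing. No interaction is given for Lockd, so its difference is not shown to change with genotype.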
